A study of Mus musculus with 6 samples.

Results

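The genes described here are the 10 core genes of mTOR signalling: *Mtor*, *Rptor*, *Rictor*, *Mlst8*, *Tsc1*, *Tsc2*, *Rheb*, *Rps6kb1*, *Eif4ebp1* and *Eif4ebp2*. They were chosen by name for their place in the pathway, and each was found once among the 53465 Ensembl genes of the count table. The study measured the RNA of oocytes from naturally aged mice, matured with or without quercetin, a plant flavonol, to ask how the compound acts on oocytes of old females. All 6 pools came from Kunming (KM) females aged 9 to 10 months, and each pool held 15 oocytes from 3 mice. Germinal vesicle oocytes, freed of cumulus cells by pipetting, were cultured in M16 medium for 16 h and collected at metaphase II (M II). The 3 control pools matured without quercetin and the 3 quercetin pools with 10 µM quercetin. Quercetin had been dissolved in DMSO, and whether the control medium held DMSO is not given in the sources used here. Young oocytes were not analysed here. The p-values below measure only the spread between these pools, which may be technical, because nothing in the labels says that the pools of a group came from separate mice. In a pool, fewer oocytes contributing RNA and less RNA per oocyte cannot be told apart.

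mTOR is a protein kinase that couples nutrients and growth factors to growth. It acts in a pair of complexes. mTORC1, which holds the subunit raptor (*Rptor*), drives protein synthesis and restrains autophagy, whereas mTORC2, which holds rictor (*Rictor*), phosphorylates AKT and related kinases and organises the cytoskeleton. The TSC complex (*Tsc1*, *Tsc2*) switches off the small GTPase Rheb, the direct activator of mTORC1. Downstream, S6 kinase (*Rps6kb1*) and the 4E-binding proteins (*Eif4ebp1*, *Eif4ebp2*) carry the signal to translation. In a fully grown oocyte transcription has ceased, so the mRNA present at M II is largely what remained of a stored pool, and its translation is controlled through the cap-binding factor eIF4E, among others.

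The total count was 8671210, 7880467 and 8905681 in control replicates 1 to 3, and 8465142, 9938743 and 8109613 in quercetin replicates 1 to 3. Values are given below as CPM, the counts of a gene relative to the library size after TMM scaling, a correction for differences in composition between libraries. A count of 3, taken as the limit that a count of 0 allows, corresponded to 0.329 to 0.376 CPM, for counting error only. The pools carried the marks of oocytes. All 10 oocyte markers examined were detected and summed to between 26356 and 31585 CPM in each pool, with *Bcl2l10* the most abundant. Of 12 markers of cumulus and granulosa cells, *Ptx3*, *Amh*, *Amhr2* and *Foxl2* were at 0 in all 6 pools, and *Cyp19a1*, *Has2*, *Ptgs2* and *Fshr* were detected in every pool. *Tnfaip6* had 0 counts in each control pool and 2, 8 and 4 in the quercetin pools, and *Lhcgr* 0 in each control pool and 2, 4 and 2 in the quercetin pools, both too few to be tested. The 12 summed to 76.5, 62.8 and 77.6 CPM in the control pools and 85.3, 84.7 and 79.5 CPM in the quercetin pools. Every quercetin pool was thus above every control pool in this sum, most of which was *Cyp19a1*, the aromatase of oestrogen synthesis. With plain library sizes, without TMM scaling, the sum was 78.7, 66.2 and 77.5 CPM against 80.4, 77.7 and 83.2 CPM, and the groups overlapped. *Cyp19a1* by itself still had every quercetin pool above every control pool with plain library sizes. Without *Cyp19a1* the TMM-scaled sum was 10.997, 4.33 and 8.78 CPM in the control pools and 10.4, 8.77 and 6.36 CPM in the quercetin pools, and the groups overlapped.

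The pair of 4E-binding proteins is shown by sequence, since how far their reads can be told apart depends on how far the paralogs differ. Each stretch below holds 51 coding bases around the motif with which the protein grips eIF4E, read 5′ to 3′ along the mRNA from the GENCODE M21 transcripts of GRCm38. *Eif4ebp1* is at chr8:27273325-27273375 on the plus strand and *Eif4ebp2* at chr10:61435051-61435101 on the minus strand, each in coding exon 2 of 3. Capitals mark the bases at which the pair differ.
Eif4ebp1: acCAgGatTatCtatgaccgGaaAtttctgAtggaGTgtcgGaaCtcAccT
Eif4ebp2: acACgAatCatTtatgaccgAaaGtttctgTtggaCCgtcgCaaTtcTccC
The pair differed at 14 of these 51 bases and was identical at 37. Of the 21 bases of the motif itself, 3 differed. Over the whole of their annotated transcripts, none of the 2001 distinct words of 31 bases in *Eif4ebp1* occurred in *Eif4ebp2*, so that a read matching 31 bases exactly can tell them apart. *Rheb* likewise shared 0 of its 7689 words with its paralog *Rhebl1*.

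Among the 10 genes, *Rheb* and *Rictor* stood highest. The pair accounted for 49.7% and 40.0% of all counts of the 10 genes, 89.6% together. Levels were compared between genes per length, as CPM per kb of annotated exon averaged over the 6 pools. *Rheb* stood highest at 77.8 CPM per kb, above 93.8% of the 11842 genes tested. *Rictor* followed at 28.6 CPM per kb, above 85.9% of tested genes. *Rps6kb1*, the kinase of ribosomal protein S6, lay at 6.42 CPM per kb, and *Mtor* itself at 3.96 CPM per kb, above 53.6% of tested genes. In each of these steps the lowest pool of the higher gene was above the highest pool of the lower gene, and *Mtor* was separated from the next gene in the same way.

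The remaining 6 genes were low. *Eif4ebp2*, *Eif4ebp1* and *Tsc1* had levels of 1.15, 1.11 and 1.05 CPM per kb and were not separated from each other: *Eif4ebp2* was above *Eif4ebp1* in 3 of 6 pools, and *Eif4ebp1* above *Tsc1* in 4 of 6. *Tsc2* lay at 0.427 CPM per kb, under *Tsc1* in 6 of 6 pools, although the ranges of the pair over the pools overlapped. *Mlst8*, the subunit common to both complexes, had 0.257 CPM per kb, and *Rptor* had 0.228 CPM per kb, above only 2.83% of tested genes. *Mlst8* was above *Rptor* in 3 of 6 pools. With the longest coding transcript of each gene as its length, an alternative chosen after seeing the data, the first 4 genes kept their order, with *Rheb* at 337 and *Rictor* at 52.0 CPM per kb. *Tsc1*, at 1.61 CPM per kb, then stood above *Eif4ebp1*, at 1.22, and *Eif4ebp2*, at 1.15, and *Rptor*, at 0.466, stood above *Mlst8*, at 0.296.

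**Figure D1:**
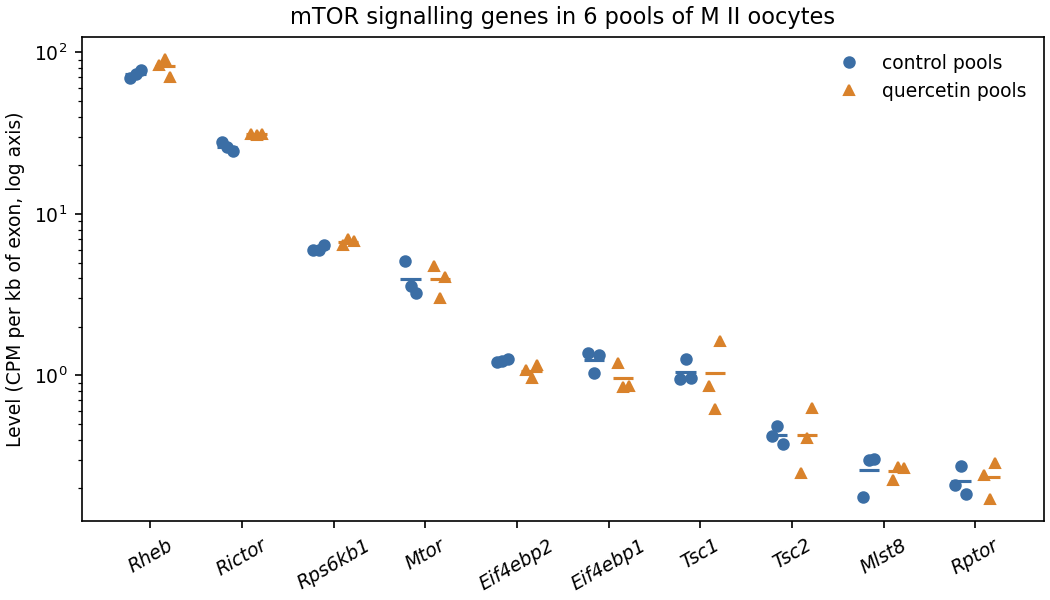
Level of each mTOR signalling gene in CPM per kb of exon (log axis), with 1 point per pool and a short line at the mean of the 3 control (circles) or 3 quercetin (triangles) pools. *Rheb*, at 77.8 CPM per kb over the 6 pools, and *Rictor*, at 28.6, stand above the other 8 genes, and *Mlst8* and *Rptor* lie lowest.

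None of the 10 genes passed the test for a change with quercetin. All 10 had enough counts to be tested, and 0 passed an adjusted p under 0.05 with a fold change over 2 in edgeR's quasi-likelihood test, where 0% of the 11842 tested genes did. At an unadjusted p under 0.05, 0 of the 10 were found, beside 4.03% of all tested genes. edgeR's likelihood ratio test and limma-voom called 0 of the 10 as well. DESeq2 called 0 of the 6 for which it gave an adjusted p, and gave none for *Rptor*, *Mlst8*, *Tsc2* and *Eif4ebp1*. The median log2 fold change, quercetin over control, was -0.0027 over the 10 genes and -0.026 over all tested genes, and 5 of the 10 estimates were above 0 and 5 below. The 95% interval of the fold change lay within 2-fold in either direction for 9 of the 10, so for these a change of that size was outside the interval. The exception was *Eif4ebp1*.

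**Figure D2:**
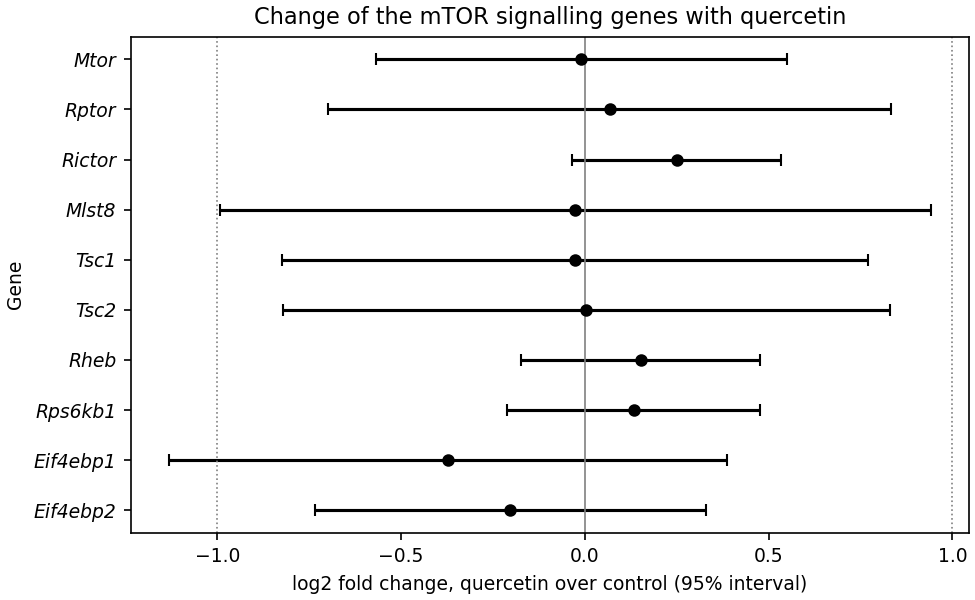
Log2 fold change of each mTOR signalling gene, quercetin over control (point), with its 95% interval from edgeR's quasi-likelihood fit (bar). Dotted lines mark a 2-fold change in each direction, every interval includes 0, and that of *Eif4ebp1* alone passes a dotted line.

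*Mtor* encodes the kinase (ENSMUSG00000028991, chr4:148448611-148557683 of GRCm38, plus strand). It had 463, 299 and 290 counts in the control pools and 386, 278 and 348 in the quercetin pools, or 52.0, 35.9 and 32.6 CPM against 48.4, 30.5 and 41.0 CPM. Control replicate 1 was the highest of the 6 and quercetin replicate 2 the lowest, and the groups overlapped. The means were 40.2 ± 10.3 CPM (SD, n = 3) and 39.9 ± 8.97 CPM (SD, n = 3), with a log2 fold change of -0.0094 (SE 0.25, 95% interval -0.57 to 0.55).

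*Rptor*, the scaffold that brings substrates to mTORC1 (ENSMUSG00000025583, chr11:119602905-119899576, plus strand), had 25, 31 and 22 counts in the control pools and 26, 21 and 33 in the quercetin pools. The corresponding values were 2.81, 3.73 and 2.48 CPM and 3.26, 2.30 and 3.88 CPM, and the quercetin pools held both the highest and the lowest. The log2 fold change was 0.068 (SE 0.34, 95% interval -0.70 to 0.83). *Mlst8* (ENSMUSG00000024142, chr17:24473551-24479078, minus strand) had 7, 11 and 12 counts in the control pools and 8, 11 and 10 in the quercetin pools, so that counting error alone was large. Its log2 fold change was -0.026 (SE 0.43, 95% interval -0.99 to 0.94). Of its annotated exon bases 22.5% lay opposite exons of *Bricd5* on the other strand, and reads of the pair cannot be told apart without strand.

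*Rictor*, the defining subunit of mTORC2 (ENSMUSG00000050310, chr15:6708379-6800401, plus strand), came nearest to the threshold. Its counts were 4221, 3647 and 3687 in the control pools and 4191, 4751 and 4513 in the quercetin pools. In CPM these were 474, 438 and 415 against 525, 521 and 531. All 3 quercetin pools were above all 3 control pools, and they lay closer together than the control pools did. The control pools averaged 442 ± 29.6 CPM (SD, n = 3) and the quercetin pools 526 ± 5.08 CPM (SD, n = 3). This gave a log2 fold change of 0.25 (SE 0.13, 95% interval -0.03 to 0.53), with an unadjusted p of 0.0785 and an adjusted p of 0.988 in edgeR's quasi-likelihood test after Benjamini-Hochberg adjustment. In the exact two-sided permutation test p was 0.1, the smallest that 3 pools against 3 allow.

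The separation of *Rictor* rested on scaling for composition, by TMM or by DESeq2's size factors. With plain library sizes the control pools had 487, 463 and 414 CPM and the quercetin pools 495, 478 and 556.5 CPM, and the groups overlapped.

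*Tsc1* encodes the stabilising subunit of the TSC complex (ENSMUSG00000026812, chr2:28641228-28691167, plus strand). Its counts were 100, 124 and 101 in the control pools and 81, 67 and 164 in the quercetin pools, or 11.2, 14.9 and 11.4 CPM against 10.1, 7.35 and 19.3 CPM. The quercetin pools spread the wider, since replicate 3 was the highest of all 6 pools and the other two were the lowest. *Tsc2*, the subunit that acts on Rheb (ENSMUSG00000002496, chr17:24595816-24632630, minus strand), had 36, 39 and 32 counts in the control pools and 19, 36 and 51 in the quercetin pools, or 4.04, 4.69 and 3.60 CPM against 2.38, 3.95 and 6.003 CPM. Quercetin replicate 3 was the highest here too, and replicate 1 the lowest.

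The mean of *Tsc1* was 12.5 ± 2.09 CPM (SD, n = 3) in the control and 12.3 ± 6.25 CPM (SD, n = 3) in the quercetin pools, and that of *Tsc2* 4.11 ± 0.548 CPM (SD, n = 3) and 4.11 ± 1.82 CPM (SD, n = 3). On the log2 scale the changes were -0.027 (SE 0.35, 95% interval -0.82 to 0.77) for *Tsc1* and 0.0039 (SE 0.37, 95% interval -0.82 to 0.83) for *Tsc2*. Without quercetin replicate 3 they were -0.51 and -0.37, and neither was called. Of the exon bases of *Tsc2*, 7.20% lay opposite exons of its neighbour *Pkd1*.

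*Rheb*, the activator of mTORC1 (ENSMUSG00000028945, chr5:24802823-24842624, minus strand), had 4803, 4699 and 5372 counts in the control pools and 5179, 6424 and 4622 in the quercetin pools. This came to 539, 565 and 604 CPM against 649, 705 and 544 CPM. Quercetin replicates 1 and 2 were above all control pools, whereas quercetin replicate 3 fell among them. The means were 569 ± 32.9 CPM (SD, n = 3) and 632 ± 81.5 CPM (SD, n = 3), with a log2 fold change of 0.15 (SE 0.14, 95% interval -0.17 to 0.48).

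*Rps6kb1* (ENSMUSG00000020516, chr11:86498871-86544805, minus strand) had 463, 431 and 492 counts in the control pools and 442, 550 and 499 in the quercetin pools. The CPM values were 52.0, 51.8 and 55.4 against 55.4, 60.3 and 58.7. No quercetin pool fell below a control pool, but control replicate 3 and quercetin replicate 1 were equal to 3 digits. The means were 53.0 ± 2.00 CPM (SD, n = 3) and 58.1 ± 2.53 CPM (SD, n = 3), which gave a log2 fold change of 0.13 (SE 0.15, 95% interval -0.21 to 0.48). With plain library sizes the control pools had 53.4, 54.7 and 55.2 CPM and the quercetin pools 52.2, 55.3 and 61.5 CPM, and the groups overlapped.

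Neither of the translational repressors passed the test, and the groups were separated for *Eif4ebp2* but not for *Eif4ebp1*. *Eif4ebp2* (ENSMUSG00000020091, chr10:61428491-61452661, minus strand) had 62, 59 and 65 counts in the control pools and 50, 51 and 57 in the quercetin pools. The values were 6.96, 7.09 and 7.31 CPM against 6.26, 5.59 and 6.71 CPM. All 3 quercetin pools were below all 3 control pools, and with plain library sizes they stayed so, at 7.15, 7.49 and 7.30 CPM against 5.91, 5.13 and 7.03 CPM. The log2 fold change was -0.20 (SE 0.24, 95% interval -0.73 to 0.33). *Eif4ebp1* (ENSMUSG00000031490, chr8:27260329-27276674, plus strand) had 27, 19 and 26 counts in the control pools and 21, 17 and 16 in the quercetin pools, and the groups overlapped. With 3.03, 2.28 and 2.93 CPM against 2.63, 1.86 and 1.88 CPM, its log2 fold change was -0.37 (SE 0.34, 95% interval -1.13 to 0.39). Its interval reached furthest down of the 10 genes and took in a 2-fold lower level.

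In all, 3 of the 10 genes had pools that did not overlap between the groups, *Rictor* and *Rps6kb1* higher and *Eif4ebp2* lower with quercetin, each with p = 0.1 in the exact permutation test. Among all tested genes 10.6% had no overlap, 5.42% higher and 5.17% lower with quercetin. With DESeq2's size factors the same 3 genes did not overlap, beside 10.7% of all tested genes. With plain library sizes 1 of the 10 was left, *Eif4ebp2*, beside 11.2% of all tested genes. The adjusted p of the 10 genes ran from 0.988 to 0.999 in edgeR's quasi-likelihood test after Benjamini-Hochberg adjustment. The summed cumulus and granulosa markers separated the groups in the same order as *Rictor* and *Rps6kb1* and, like them, did not do so with plain library sizes. Of the 12 markers, *Cyp19a1*, *Tnfaip6* and *Lhcgr* singly separated the groups in that order, both with TMM scaling and with plain library sizes. *Tnfaip6* and *Lhcgr* did so on counts too few to be tested. *Has2*, *Ptgs2*, *Fshr*, *Inha* and *Inhba* overlapped between the groups, and *Amh*, *Amhr2*, *Foxl2* and *Ptx3* were at 0 throughout. Among those that overlapped, *Ptgs2* and *Fshr* had a lower mean CPM with quercetin, and *Has2*, *Inha* and *Inhba* a higher one. The sum without *Cyp19a1* overlapped. Of the 10 oocyte markers, *Gdf9*, an oocyte growth factor, separated the groups in that order too, at 5864, 5583 and 5833 CPM in the control pools and 7504, 6007 and 6663 CPM in the quercetin pools, and it too overlapped with plain library sizes. The other 9 overlapped between the groups, among them *Ooep*, with a log2 fold change of -0.92 and an unadjusted p of 0.0412 and an adjusted p of 0.988 in edgeR's quasi-likelihood test. The part of these markers in the values of *Rictor* and *Rps6kb1* was not tested.

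The balance between partner genes was taken as the ratio of their counts per kb of exon within a pool, which does not depend on library scaling. The ratio of *Rictor* to *Rptor* was 134, 93.6 and 133 in the control pools and 128, 180 and 109 in the quercetin pools. Thus the mRNA of the mTORC2 subunit exceeded that of the mTORC1 subunit in every pool, by 127-fold in the geometric mean. The log2 ratio was higher by 0.19 in the quercetin pools (exact permutation p = 0.6, adjusted p = 1 over the 4 ratios).

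The ratio of *Tsc1* to *Tsc2* was 2.26, 2.58 and 2.57 in the control pools and 3.47, 1.51 and 2.61 in the quercetin pools. The ratio of *Eif4ebp2* to *Eif4ebp1* was 0.872, 1.18 and 0.949 against 0.904, 1.14 and 1.35, so neither paralog was above the other in every pool. The ratio of *Mtor* to *Mlst8* was 29.0, 11.9 and 10.6 against 21.2, 11.1 and 15.3, and it rested on few *Mlst8* counts. The groups overlapped in all 4 ratios. The differences in the log2 ratio were -0.043 for *Tsc1* to *Tsc2*, 0.17 for *Eif4ebp2* to *Eif4ebp1* and -0.011 for *Mtor* to *Mlst8*, with adjusted p = 1 for each in the exact permutation test.

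**Figure D3:**
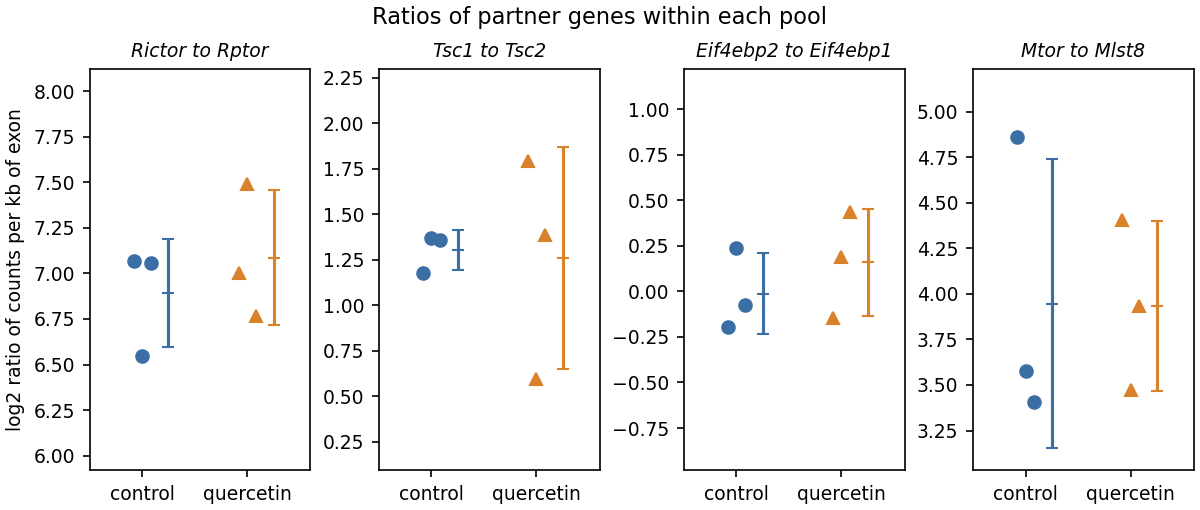
Log2 ratio of the counts per kb of exon of partner genes within each pool, for 3 control (circles) and 3 quercetin (triangles) pools, with the mean and SD as a bar beside the points. The 4 panels span equal ranges of log2 units, and the groups overlap in each of them.

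The other genes of the pathway were taken from a list of 89, by role. Of these, 73 had enough counts to be tested, and 6 had no count in any pool: *Telo2*, *Kptn*, *Itfg2*, *Irs2*, *Tfeb* and *Eif4ebp3*, the third 4E-binding protein. Of the exon bases of *Eif4ebp3*, 67.3% overlapped another gene on the same strand, *AC115631.1*. Its lack of counts therefore does not show that its mRNA was absent. Over the 73 genes the median log2 fold change was 0.0060, with 38 estimates above 0 and 35 below. None passed the adjusted threshold in edgeR's quasi-likelihood test. At an unadjusted p under 0.05, 1 was higher and 4 were lower, where 2.14% and 1.89% of all tested genes were. Pools did not overlap for 2 higher and 6 lower genes of the 73, or 11%, close to the 10.6% of all tested genes. The 95% interval lay within 2-fold for 44 of the 73.

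By role, 0 genes were found at an unadjusted p under 0.05 among 8 tested genes for the other complex subunits and assembly factors, whose median log2 fold change was 0.13, and 0 among 14 translation targets, whose median was -0.12. Of 23 genes of amino acid sensing at the lysosome, with a median of 0.10, 1 was higher. Of 18 growth factor and energy inputs, with a median of 0.06, 2 were lower. Of 10 other targets, with a median of -0.10, 2 were lower. The most abundant per length in these groups were *Deptor*, an inhibitory subunit of both complexes, at 26.3 CPM per kb, *Sec13*, shared by GATOR2 and the nuclear pore, at 196, *Prkab1*, a subunit of AMPK, at 30.5, *Eif4a2*, the RNA helicase of cap-dependent initiation, at 88.8, and *Rb1cc1*, a partner of ULK1 in autophagy, at 4.23. *Eif4a2* shared 19.6% of its 31-base words with other annotated genes and is the less certain for it.

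**Figure D4:**
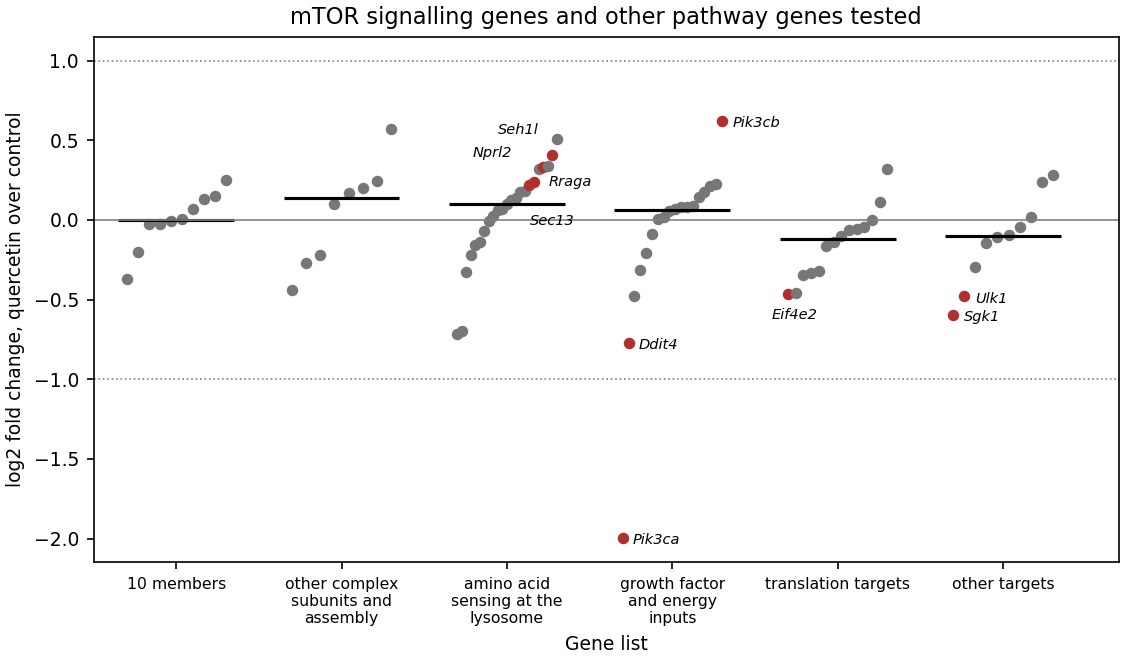
Log2 fold change, quercetin over control, of the 10 mTOR signalling genes and of 73 other tested pathway genes by role, with 1 point per gene and a line at the median of each group. Red points with names are the 5 higher and 5 lower pathway genes of smallest p, and dotted lines mark a 2-fold change. *Pik3ca*, at -1.997, is the only point beyond a dotted line.

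*Pik3ca*, a catalytic subunit of the PI3-kinase that feeds growth factor signals to AKT and mTOR, had the smallest p of the pathway. It had 446, 370 and 109 counts in the control pools and 64, 93 and 72 in the quercetin pools, or 50.05, 44.5 and 12.3 CPM against 8.02, 10.2 and 8.47 CPM. The groups did not overlap, but control replicate 3 lay close to the quercetin pools and far from the other two control pools. The log2 fold change was -1.997 (SE 0.46, 95% interval -3.03 to -0.96), with an unadjusted p of 0.00184 and an adjusted p of 0.893 in edgeR's quasi-likelihood test after Benjamini-Hochberg adjustment. DESeq2 called *Pik3ca*, with an adjusted p of 0.00231, and so did edgeR's likelihood ratio test, with 0.0311, while limma-voom did not. Over all alternatives the adjusted p ran from 0.00231 to 0.9999. Leaving out 1 pool at a time gave log2 fold changes from -2.40, without control replicate 3, to -1.67, without control replicate 1.

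The other pathway genes lower with quercetin at an unadjusted p under 0.05 each missed the adjusted threshold as well. *Ddit4*, a stress-induced inhibitor of mTORC1, had 59, 46 and 46 counts in the control pools and 32, 27 and 27 in the quercetin pools, with means of 5.78 ± 0.753 CPM (SD, n = 3) and 3.38 ± 0.553 CPM (SD, n = 3). This was a log2 fold change of -0.77 (SE 0.28) with an unadjusted p of 0.0214. *Ulk1*, the kinase that starts autophagy and is restrained by mTORC1, had 150, 131 and 156 counts against 100, 103 and 103, and 16.7 ± 0.907 CPM (SD, n = 3) against 11.98 ± 0.627 CPM (SD, n = 3). This came to a log2 fold change of -0.48 (SE 0.20) with an unadjusted p of 0.03765. *Sgk1*, a kinase downstream of mTORC2, had 83, 87 and 109 counts against 42, 71 and 69, a log2 fold change of -0.59 (SE 0.26) and an unadjusted p of 0.0492. Each of these 3 genes had every quercetin pool below every control pool. *Eif4e2*, a cap-binding relative of eIF4E, followed at -0.46 (SE 0.30), with an unadjusted p of 0.151.

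On the higher side, *Seh1l*, a subunit of GATOR2, which relieves the inhibition of mTORC1 in the presence of amino acids, and of the nuclear pore, had 245 ± 35.6 CPM (SD, n = 3) in the control and 325 ± 35.8 CPM (SD, n = 3) in the quercetin pools. Its log2 fold change was 0.41 (SE 0.16) with an unadjusted p of 0.0308, and the pools did not overlap. *Pik3cb*, another catalytic subunit of PI3-kinase, had a log2 fold change of 0.62, opposite in sign to *Pik3ca*, with an unadjusted p of 0.0542. It ran from 0.44 to 0.98, the latter without control replicate 3, when 1 pool at a time was left out. *Nprl2*, a subunit of the inhibitory GATOR1, had 0.33 (unadjusted p = 0.0759), *Rraga*, a Rag GTPase that places mTORC1 at the lysosome, 0.24 (unadjusted p = 0.103), and *Sec13* 0.22 (unadjusted p = 0.156). Over these 10 named pathway genes the adjusted p lay between 0.893 and 0.988 in edgeR's quasi-likelihood test after Benjamini-Hochberg adjustment.

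Several pathway genes varied widely among the 6 pools. Among tested genes at a mean of 5 CPM or more, 725 of 7931 (9.14%) differed by over 3-fold between their highest and lowest pool. Of the 10 core genes, 6 were at this level, and 0 of them did, with a median ratio of 1.31 beside 1.65 for all. With the other pathway genes added, 9 of 59 (15.3%) did, and the median ratio of the 59 was 1.59. The genes described next were chosen after their values were seen.

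*Rragc*, a partner of *Rraga* in the Rag heterodimer, had 796, 113 and 660 CPM in the control pools and 156, 724 and 680 CPM in the quercetin pools. Control replicate 2 and quercetin replicate 1 were low and the other pools alike. *Eif4e*, the cap-binding factor held by the 4E-binding proteins, had 335, 62.8 and 65.7 CPM against 404, 88.6 and 85.1 CPM. It was high in replicate 1 of both groups. *Lamtor5*, a subunit of the Ragulator that anchors the Rag GTPases, had 6.17, 27.5 and 19.1 CPM against 7.02, 26.3 and 26.4 CPM, and was low in those same pools. *Flcn*, folliculin, which acts on RagC, had 58.2, 9.74 and 63.1 CPM against 15.5, 15.0 and 49.2 CPM, with control replicate 2 and quercetin replicates 1 and 2 low.

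**Figure D5:**
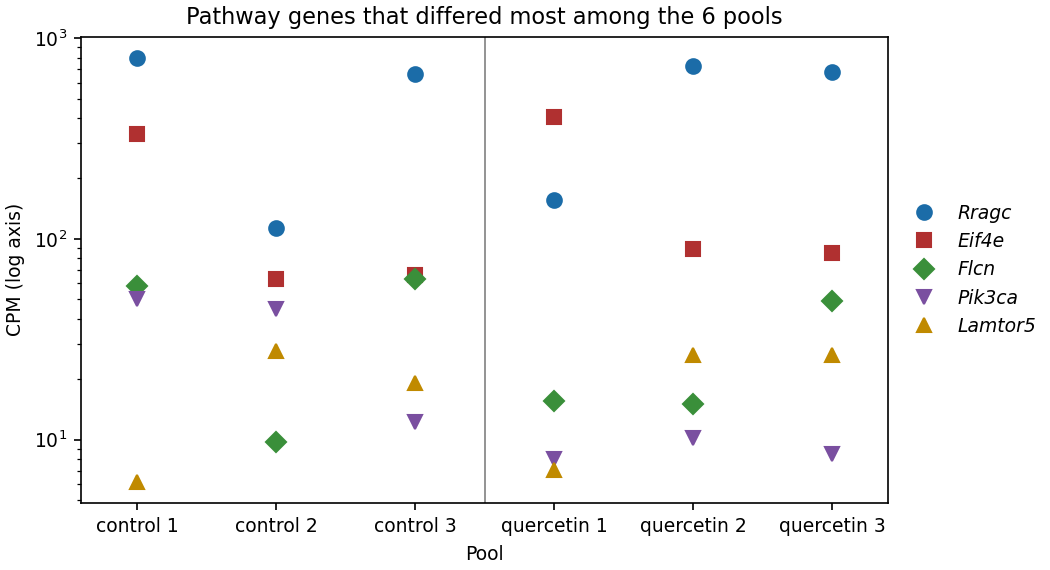
CPM (log axis) in each of the 6 pools of the 5 pathway genes with the largest ratio of highest to lowest pool among those at a mean of 5 CPM or more. *Eif4e* is high in replicate 1 of both groups and *Lamtor5* is low there, *Rragc* is low in control replicate 2 and quercetin replicate 1, and *Pik3ca* is high in control replicates 1 and 2.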

How the data were processed

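The deposited table held raw counts per Ensembl gene for 6 libraries, made by the authors from full-length cDNA of pooled M II oocytes (SMART-Seq HT) sequenced on an Illumina NovaSeq. The study's methods name Hisat2 and GRCm38, whereas the submitters' processing notes name CASAVA 1.8 and TopHat2 2.0.6. The counting program, its use of strand and its treatment of reads with several matches are not given in the sources used here. Such reads bear on *Mlst8*, *Tsc2*, *Eif4ebp1*, *Eif4a2* and other genes that share bases with another gene.

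Of 53465 genes, 11842 passed edgeR's filter (minimum count 10). Library sizes in the fits and for TMM-scaled CPM were the summed counts of the tested genes, and plain library sizes for CPM were the totals over all rows. Quercetin was compared with control by edgeR 4.0.16's quasi-likelihood test (R 4.3.3) with TMM scaling and Benjamini-Hochberg adjustment over all tested genes, and a gene was called at an adjusted p under 0.05 with a fold change over 2, the study's threshold. The study itself reported both up-regulated and down-regulated genes at that threshold, and its methods name no program for the test. Single genes and ratios were also tested by exact two-sided permutation. DESeq2 1.42.0, limma 3.58.1 (voom) and edgeR's likelihood ratio test were alternatives, along with other scalings, filters, a replicate block and leaving out each pool. The edgeR quasi-likelihood fit was tested on simulated counts, and the alternatives and permutation tests were not. Coordinates, exon lengths and transcript sequences came from GENCODE M21 (GRCm38). Of the 10 members and 89 other pathway genes, all matched by symbol.

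The members and the lists of pathway genes and cell type markers were chosen with earlier results of these data known. Named were all 10 members and, of the other pathway genes, the most abundant per length in each role and the 5 higher and 5 lower of smallest p, except where stated. Groups and replicate numbers came from the sample labels, with 3 pools a group.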

Additional observations from a re-analysis of the deposited data

How the results depend on the processing

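None of the 10 genes was called, or found at an unadjusted p under 0.05, under any alternative tried. *Mlst8* was not tested with 10 counts required in every pool, and DESeq2 gave no adjusted p for 4 of the 10. Calls among all tested genes went from 0 to 12 with DESeq2 (5 higher, 7 lower), 16 with edgeR's likelihood ratio test (6 higher, 10 lower) and 3 without a filter. In the fit without a filter 24476 genes were tested, and 780 of them were found at an unadjusted p under 0.05, rather than 477 of 11842. Among the other pathway genes DESeq2 and the likelihood ratio test each called 1, *Pik3ca*, and found 3 rather than 5 at an unadjusted p under 0.05, where 384 and 419 rather than 477 of all tested genes were found. Plain library sizes left 1 rather than 3 of the 10 genes without overlap and moved the median log2 fold change of all tested genes from -0.026 to -0.11. They moved the log2 fold change of *Rictor* to 0.17, of *Rheb* to 0.060 and of *Rps6kb1* to 0.049. Those of *Mtor*, *Mlst8* and *Tsc1* became -0.091, -0.11 and -0.084, and those of *Rraga* and *Sec13* 0.15 and 0.13. Estimates near 0 changed sign: *Mtor* to 0.0074 with DESeq2, 0.0076 with its size factors in edgeR and 0.00054 without a filter, *Mlst8* to 0.014 with voom, *Rptor* to -0.0094 with plain library sizes, and *Tsc2* to -0.077 with voom, -0.065 with plain library sizes and -0.00052 with 10 counts required in every pool.

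Leaving out 1 pool at a time gave 0 to 7 (without quercetin replicate 1) calls among all tested genes, with 241 (without control replicate 2) to 1563 (without quercetin replicate 3) at an unadjusted p under 0.05, 1 (without quercetin replicate 2) to 10 (without quercetin replicate 3) of these among the other pathway genes, and 3 to 5 of the 10 genes without overlap. The share of all tested genes without overlap rose as well, to 18.3% and 20.5% where 3 of the 10 had none, 16.2%, 18.2% and 20.2% where 4 had none, and 31.7% where 5 had none, without quercetin replicate 3, when *Tsc1* and *Rheb* joined the 3. The log2 fold changes ran from -0.17 to 0.22 for *Mtor*, -0.11 to 0.25 for *Rptor*, 0.21 to 0.30 for *Rictor*, -0.24 to 0.11 for *Mlst8*, -0.51 to 0.24 for *Tsc1*, -0.37 to 0.28 for *Tsc2*, 0.07 to 0.25 for *Rheb*, 0.11 to 0.17 for *Rps6kb1*, -0.55 to -0.28 for *Eif4ebp1*, -0.26 to -0.13 for *Eif4ebp2*, -0.010 to 0.15 for *Prkab1*, -0.28 to 0.12 for *Eif4a2* and -0.21 to 0.0083 for *Rb1cc1*. The log2 ratios differed by -0.0081 (without quercetin replicate 2) to 0.35 for *Rictor* to *Rptor*, -0.31 to 0.29 (without quercetin replicate 2) for *Tsc1* to *Tsc2*, 0.03 to 0.32 for *Eif4ebp2* to *Eif4ebp1*, and -0.28 to 0.44 (without control replicate 1; 0.22 without quercetin replicate 2) for *Mtor* to *Mlst8*.

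Pools with equal replicate numbers were not treated as pairs: their deviations from the group means correlated at 0.295, 0.102 and -0.0292, and control replicate 2 correlated best with quercetin replicate 3, at 0.173. With a replicate block 0 genes were called and 492 were found at an unadjusted p under 0.05, *Tsc2* went to -0.066, and 0 of the 10 genes passed either threshold.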

Other observations

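Of the 10 oocyte markers, 6 had their lowest value of each group in replicate 1, as *Lamtor5* did: *Bmp15*, *Nlrp5*, *Ooep*, *Zp1*, *Zp2* and *Zp3*. They were looked at after their values were seen. *Bmp15* and *Nlrp5* ranged by 1.499-fold and 1.89-fold over the pools and *Ooep* by 4.11-fold. *Zp2*, the sperm-binding protein of the egg coat, had 223, 1560 and 630 CPM in the control pools and 131, 848 and 1325 CPM in the quercetin pools, an 11.9-fold range. *Zp1* and *Zp3* ranged by 3.26-fold and 3.55-fold over the pools. *Rps6*, the ribosomal protein that S6 kinase phosphorylates, had only 9, 5 and 2 counts in the control pools and 5, 7 and 7 in the quercetin pools. Of its 31-base words 45.0% occur in other annotated genes, and how such reads were counted is not given in the sources used here.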
